A study of Mus musculus with 4 samples.

Results

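The 10 genes described here encode C-type lectin receptors of myeloid cells: Clec4a1, Clec4a2, Clec4a3, Clec4b1, Clec4d, Clec4e and Clec4n of the Dectin-2 gene cluster, and the related Clec7a, Clec12a and Clec5a. They are 10 of the 17476 genes in the deposited count table. They were selected on the difference in read counts between Trem2 mutant and wild-type (WT) cells, as a family that sets inhibitory against activating receptors, so their differences between genotypes are given as a description, without a test. The tested libraries were Trem2 mutant 1 and Trem2 mutant 3, and they were set against WT 1 and WT 2. Myeloid-derived suppressor cells (MDSCs), immature myeloid cells that restrain T cells, were grown from the marrow of Trem2 mutant or C57BL/6 mice and injected into male NRG mice, an immunodeficient strain. Recipients were challenged at 6 weeks of age with TRAMP-C1, a mouse prostate cancer line, received the MDSCs 4 weeks later and were killed after another 6 h, and CD45+ CD11B+ GR1+ cells were sorted from the tumours. All 4 libraries carry the strain label C57BL/6. The gate names no marker that tells injected from recipient cells, and the labels give neither the Trem2 allele nor whether animals were pooled.

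C-type lectin receptors bind sugars, glycolipids or products of dying cells through a folded extracellular domain. The activating ones signal through an ITAM, a tyrosine motif that recruits the kinase Syk. It lies in a partner chain (FcRγ, encoded by Fcer1g, or DAP12, encoded by Tyrobp), or in part in the receptor's own tail, as in Dectin-1. Syk then acts through CARD9, BCL10 and MALT1 on NF-kB. The inhibitory ones carry an ITIM, a tyrosine motif that recruits the phosphatases SHP-1 (Ptpn6) and SHP-2 (Ptpn11). TREM2, the receptor mutated here, also signals through DAP12.

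The inhibitory and activating receptors differ in the letters of their cytoplasmic tails, which are shown because the results are ordered by them. The coding sequences of all 10 genes were read from the GENCODE M21 transcripts (GRCm38), and the tail was taken as the stretch before the most hydrophobic segment near the start. An ITIM was searched for as isoleucine, leucine, valine or serine, any residue, tyrosine, any pair of residues, then isoleucine, leucine or valine. It was found in Clec4a2 and Clec12a, with its tyrosine at residue 7 in both, and in no other member. Codons 5 to 10 are printed 5′ to 3′, with the tyrosine codon in capitals.
Clec4a2: atcactTATgcagaagtg
Clec12a: attgttTATgcaaatctc
Clec4a1: aacattTATactgacgtg
Clec4a3: aacattTATgttaacacg
Clec4a1 and Clec4a3 thus had a tyrosine codon at residue 7 without the letters around it that make an ITIM. Clec4a4, a neighbour that is no member, had the same 18 bases as Clec4a2. The half-ITAM of Clec7a, a tyrosine followed after any pair of residues by leucine or isoleucine, had its tyrosine at residue 15.
Clec7a: TATactcaatta
Clec4b1, Clec4n, Clec4d, Clec4e and Clec5a had 0 tyrosines in the tail by this search, as receptors that signal through partner chains.

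All 10 genes lie on mouse chromosome 6 (GRCm38, GENCODE M21). The Dectin-2 cluster runs from Clec4a1 (122921848 to 122934619, plus strand) through Clec4a3 (122952515 to 122969875), Clec4b1 (123049962 to 123071555), Clec4a2 (123106428 to 123143999), Clec4n (123229843 to 123247021) and Clec4d (123262111 to 123275265), all on the plus strand. Clec4e (123281789 to 123289870, minus strand) closes it, facing Clec4d tail to tail over a gap of 6.52 kb. Clec12a (129342691 to 129365303, plus strand) and Clec7a (129461591 to 129472779, minus strand) lie in a second lectin cluster. Clec5a (40574894 to 40585821, minus strand) lies far from both. GENCODE M21 lists Clec7a as a polymorphic pseudogene, a gene with a disabling variant in the reference genome and an intact copy in other individuals or strains, and the other 9 as protein coding. The Clec7a transcript read here nonetheless gave a coding sequence of 735 bases (244 residues) with a start and a stop codon.

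Library totals were 10306674 and 9820893 reads for the mutant and 8037733 and 8077966 reads for WT. Trem2 was lower in the mutant libraries, at 21.9 ± 1.36 against 48.2 ± 5.69 normalised counts (CPM, reads scaled to a common library size with TMM factors) in WT (SD, n = 2 each; log2 fold change −1.14, edgeR quasi-likelihood test, adjusted p = 0.00157). Trem2 mutant 1 stood apart in that the noncoding locus Gm42418 took 13.9% of its reads, against 0.418% in Trem2 mutant 3 and 0.258% to 1.04% in WT. Nothing in the labels says that libraries of a genotype came from separate animals or cultures, so a p-value here speaks of library-to-library spread alone, part or all of which may be technical. Granulocyte markers moved with genotype: 9 of 10 were higher in the mutant libraries and 0 lower, with summed levels of 23872 and 28375 CPM against 6215 and 6360 CPM in WT, and no marker at 0. Of 8 monocyte markers 5 were higher and 0 lower, with summed levels of 1823 and 2472 CPM in the mutant against 1369 and 1474 CPM in WT. All 3 eosinophil markers tested were higher, with summed levels of 151 and 192 CPM in the mutant against 71.8 and 72.0 CPM in WT. Of 8 macrophage markers 4 were higher and 0 lower, with summed levels of 898 to 1141 CPM in the mutant against 896 to 982 CPM in WT. Of 5 dendritic cell markers tested 0 passed by edgeR, with summed levels of 291 to 293 CPM in the mutant against 330 to 392 CPM in WT. The gate's markers Ptprc (1328 and 1363 CPM in the mutant, 1114 and 1162 CPM in WT) and Itgam (643 and 653 CPM in the mutant, 420 and 431 CPM in WT) were present, whereas Ly6g, an antigen of the GR1 antibody, had 123 and 144 CPM in the mutant but only 5.66 and 7.22 CPM in WT. Ly6c2, also listed for the gate, had 282 and 378 CPM in the mutant libraries, against 24.8 and 26.9 CPM in WT. Of 4 gate markers tested 3 were higher and 0 lower. The part of these marker differences in the lectin receptor values was not tested.

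Of the 10 receptor genes, 9 passed the filter on low counts and Clec4b1 did not. In the fit over 14239 genes, 4 of the 9 were past an adjusted p of 0.05 on the higher side in the mutant (Clec4e, Clec12a, Clec5a and Clec4a2) and 2 on the lower side (Clec4a3 and Clec4a1). Over all genes tested, 9.55% were called higher and 3.6% lower, 13.2% in all. As the genes were chosen with this contrast in view, nothing is read from their count. The count of higher calls was 1 without WT 1 and 2 without WT 2. The CPM of the genotypes did not overlap for 7 of the 9, 4 with the mutant above and 3 with the mutant below. Of all genes tested 60.5% did not overlap, 28.9% with the mutant above and 31.7% with it below. The median log2 fold change was 0.17 over the 9 receptor genes and −0.02 over all genes tested. In a bulk sample, fewer cells that express a gene and less RNA per cell cannot be told apart.

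**Figure D1:**
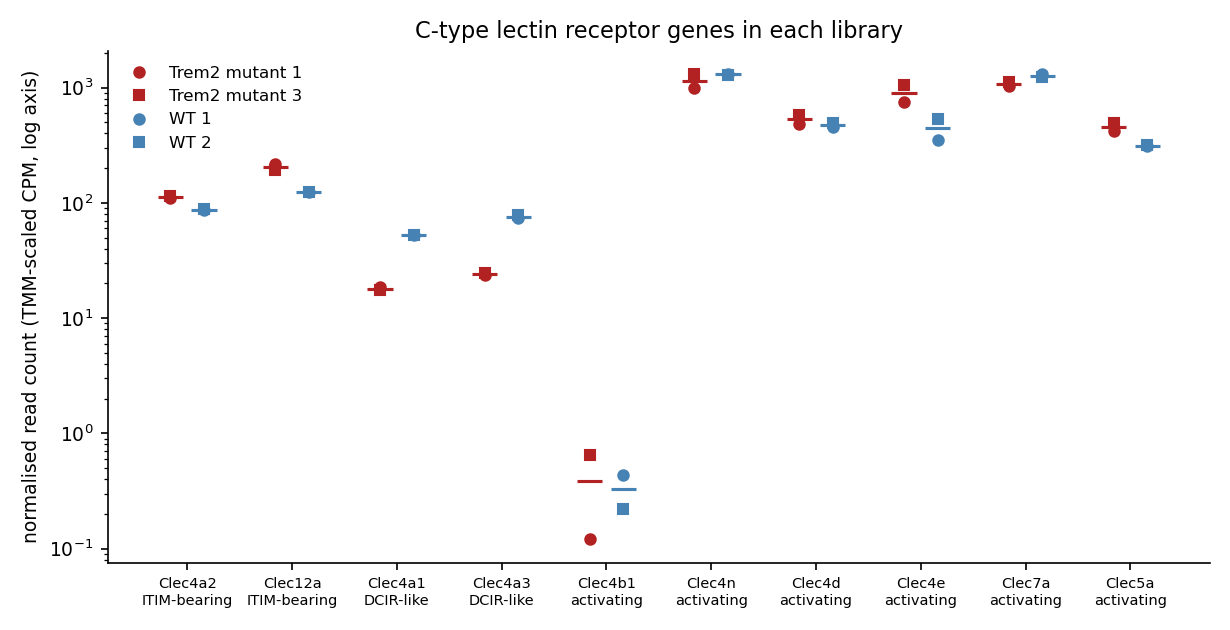
TMM-scaled CPM (log axis) of the 10 receptor genes in each library, with Trem2 mutant libraries in red left of WT libraries in blue, circles and squares for the libraries of each genotype and bars for their means. Clec4a1 and Clec4a3 sit lower in both mutant libraries, at 17.4 to 24.5 CPM against 52.3 to 78.4 CPM in WT, and Clec4b1 is near the floor in all 4.

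The ITIM-bearing genes were higher in the mutant libraries. Clec4a2, which encodes DCIR, the inhibitory receptor of dendritic cells and other myeloid cells, had 110 CPM in Trem2 mutant 1 and 115 CPM in Trem2 mutant 3, against 86.4 CPM in WT 1 and 87.8 CPM in WT 2. Both mutant libraries lay above both WT libraries, and the log2 fold change was 0.37 (SE 0.077). With scaling by library totals alone, which moved the median of all genes from −0.02 to −0.40, it was 0.00 and not past the threshold. With DESeq2 it was 0.39, also not past the threshold. Clec12a encodes MICL, an inhibitory receptor of granulocytes and monocytes that binds uric acid crystals. It had 215 and 194 CPM in Trem2 mutant 1 and Trem2 mutant 3, against 125 and 123 CPM in WT 1 and WT 2. Its groups did not overlap either, with a log2 fold change of 0.73 (SE 0.085). With library totals it was 0.35 and not past the threshold.

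The DCIR relatives without an ITIM, Clec4a1 and Clec4a3, were lower in the mutant libraries. Clec4a1, also called DCIR4, had 18.7 and 17.4 CPM in Trem2 mutant 1 and Trem2 mutant 3, against 53.0 and 52.3 CPM in WT 1 and WT 2. Clec4a3, also called DCIR3, had 23.5 and 24.5 CPM in Trem2 mutant 1 and Trem2 mutant 3, against 73.4 and 78.4 CPM in WT 1 and WT 2. In both genes every mutant library lay far below every WT library, and libraries of a genotype differed by at most 1.07-fold. The log2 fold changes were −1.54 (SE 0.107) for Clec4a1 and −1.66 (SE 0.0987) for Clec4a3. Leaving out each library in turn gave −1.59 to −1.48 and −1.71 to −1.61. Their coding sequences are 68.8% identical, and no window of 75 bases in the longest transcript of either occurs in another gene's annotated transcripts.

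Clec4a1 and Clec4a3 also share letters in front of a transcription start. In the RefSeq promoters (GRCm38.p6, 250 bases before to 50 after a start), the longest run common to both is 17 bases, given in capitals with its surroundings, 5′ to 3′ on the plus strand. It begins 222 bases before the start of Clec4a1 (chr6:122921626-122921642) and 55 bases before the second listed start of Clec4a3 (chr6:122952589-122952605). That place is inside the annotated Clec4a3 gene, which starts at 122952515. The promoter at the first listed start of Clec4a3 (chr6:122952265-122952564) does not hold the run.
Clec4a1: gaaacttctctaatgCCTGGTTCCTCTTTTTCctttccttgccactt
Clec4a3: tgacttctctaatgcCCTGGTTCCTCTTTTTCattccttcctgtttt
Of 32851 promoters these were the only 2 genes with that run on either strand. Clec4a4, next to Clec4a3 and with 74.8% identical coding bases, had no promoter in the table. Whether Clec4a4 holds the run was therefore not tested. The run was looked for because Clec4a1 and Clec4a3 were lower together, and shared letters are common between neighbouring relatives. The run holds TTCCTC, the reverse complement of the PU.1 core GAGGAA, which occurred on either strand in at least 1 promoter of 8 of the 9 receptor genes with an entry. Among all promoters, each counted by itself rather than by gene, 28.3% held it. Clec4a3 held it only at its second listed start. None of the core's matches in the receptor genes overlapped the C/EBP or NF-kB motifs searched. Clec4n was not in the table.

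Among the activating receptors, Clec4e and Clec5a were higher, and Clec4n, Clec4d and Clec7a were not past the threshold. Clec4e encodes Mincle, which senses mycobacterial glycolipid and the nuclear protein SAP130 of dying cells through FcRγ. It had 752 CPM in Trem2 mutant 1 and 1050 CPM in Trem2 mutant 3, against 350 CPM in WT 1 and 536 CPM in WT 2. The genotypes did not overlap, but libraries of a genotype differed by 1.40-fold in the mutant and 1.53-fold in WT, the widest spread among the 9 genes that passed the filter. The log2 fold change was 1.02 (SE 0.219). It came to 0.75 when WT 1 was left out, 1.36 for WT 2, 1.25 for Trem2 mutant 1 and 0.78 for Trem2 mutant 3. Clec5a encodes MDL-1, which signals through DAP12. It had 423 and 495 CPM in Trem2 mutant 1 and Trem2 mutant 3, against 310 and 315 CPM in WT 1 and WT 2, with no overlap and a log2 fold change of 0.55 (SE 0.1). Leaving out each library in turn gave 0.45 to 0.67 for Clec5a. With library totals the log2 fold changes were 0.67 for Clec4e and 0.19 for Clec5a, and Clec5a was then not past the threshold. With DESeq2 Clec4e was not past it.

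The RefSeq promoter of Clec4e (GRCm38.p6, chr6:123289822-123290121, minus strand) is shown because C/EBPβ is known to induce this gene. The C/EBP letters searched, TTGCNNAA, occurred once in it, on the opposite strand, and are in capitals.
Clec4e: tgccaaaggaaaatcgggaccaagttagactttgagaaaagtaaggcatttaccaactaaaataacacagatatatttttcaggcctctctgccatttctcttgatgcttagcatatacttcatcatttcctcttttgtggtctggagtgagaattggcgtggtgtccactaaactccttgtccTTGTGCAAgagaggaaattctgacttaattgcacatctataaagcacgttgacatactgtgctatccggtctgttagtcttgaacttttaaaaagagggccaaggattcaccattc
Besides Clec4e, only Clec12a of the 9 receptor genes with a promoter held these letters, and 10.8% of all promoters did. An NF-kB core motif was in 1 of the 9, Clec4a1, and in 20.7% of all promoters. Both shares of all promoters count promoters, not genes. A match of letters is a description and does not show that a factor binds.

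The 3 receptors most abundant per length did not pass the threshold with TMM scaling and no library left out. Clec4n encodes Dectin-2, which binds fungal mannan and signals through FcRγ. It had 999 and 1302 CPM in Trem2 mutant 1 and Trem2 mutant 3, against 1311 and 1291 CPM in WT 1 and WT 2. Trem2 mutant 3 lay between the WT libraries, and the log2 fold change was −0.18 (SE 0.137). It was 0.01 when Trem2 mutant 1 was left out, but −0.36 when Trem2 mutant 3 was. With library totals, where the median of all genes was −0.40, it was −0.54 and past the threshold. Clec4d encodes MCL, which pairs with Mincle. It had 485 and 581 CPM in Trem2 mutant 1 and Trem2 mutant 3, against 455 and 493 CPM in WT 1 and WT 2, with overlapping groups. Its log2 fold change was 0.17 (SE 0.111), and its sign turned with library totals, at −0.19.

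Clec7a encodes Dectin-1, the receptor for fungal beta-glucan. It had 1039 and 1111 CPM in Trem2 mutant 1 and Trem2 mutant 3, against 1299 and 1241 CPM in WT 1 and WT 2. Both mutant libraries lay below both WT libraries, by a log2 fold change of −0.24 (SE 0.1). With library totals it was −0.61 and past the threshold, in a setting where the median of all genes was −0.40. Clec4b1 encodes DCAR, an FcRγ-coupled receptor. It had 1 and 6 reads in Trem2 mutant 1 and Trem2 mutant 3, against 4 and 2 reads in WT 1 and WT 2, around the floor of 3 counts, so no fold is given. Of the 75-base windows of Clec4a2 and Clec4b1, 4.03% and 1.19% occur in transcripts of other lectin genes of the cluster, so a few of their reads cannot be assigned with certainty. The other 8 receptor genes shared 0 such windows.

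**Figure D2:**
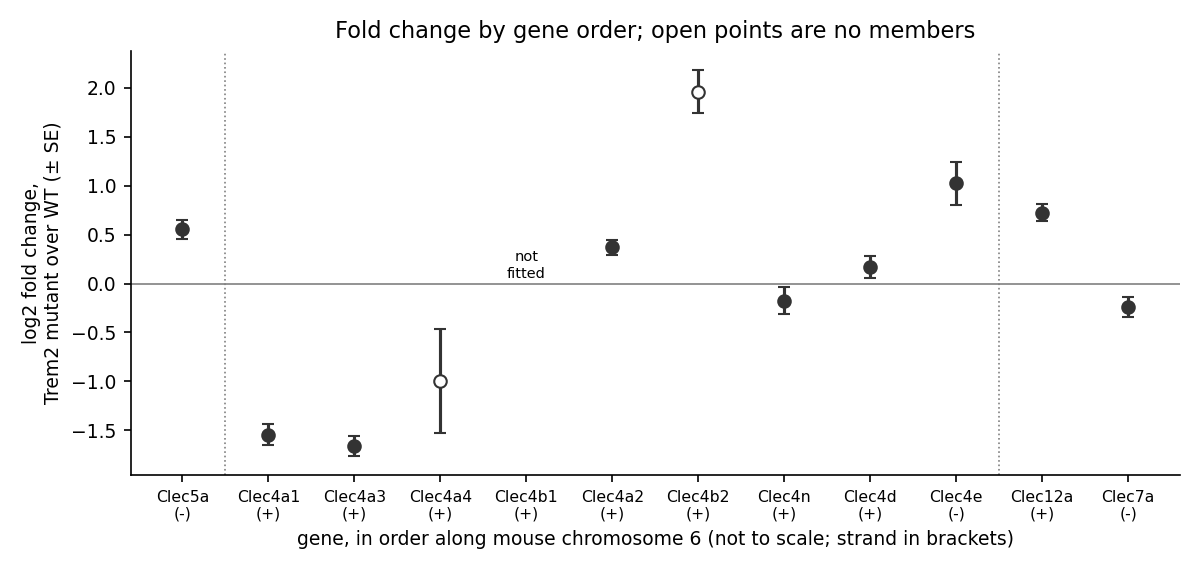
Log2 fold change of Trem2 mutant over WT (points, with SE bars) for the receptor genes and 2 neighbours in the Dectin-2 cluster, in their order along mouse chromosome 6 and not to scale. Clec4a1 and Clec4a3, at −1.54 and −1.66, stand at one end of the cluster, and Clec4e, at 1.02, at the other.

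By position, the genes lower in the mutant libraries stood next to each other at the start of the Dectin-2 cluster, 17.9 kb apart. Beside them lies Clec4a4, which encodes the ITIM-bearing DCIR2. It had 3 and 9 reads in Trem2 mutant 1 and Trem2 mutant 3, against 14 and 11 reads in WT 1 and WT 2, and it did not pass the test (log2 fold change −0.996, SE 0.532, edgeR adjusted p = 0.252). Its transcript shares 12.7% of its 75-base windows with Clec4a2. Clec4b2, a close relative of Clec4b1 with 80.8% identical coding bases, lies between Clec4a2 and Clec4n. It had 12.8 and 11.1 CPM in Trem2 mutant 1 and Trem2 mutant 3, against 3.05 and 3.06 CPM in WT 1 and WT 2. The mutant libraries lay above WT, and the change passed the test (log2 fold change 1.96, SE 0.222, edgeR adjusted p = 0.00169). Neighbouring genes of the cluster thus differed in direction, and with Clec4d and Clec4e the tail-to-tail pair had log2 fold changes of 0.17 and 1.02.

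Levels can be set side by side between genes only per length, and are given next as CPM per kb of annotated exon. In the mutant libraries Clec4n led with 810 ± 151 CPM per kb, followed by Clec7a (407 ± 19.3), Clec4d (333 ± 42.6), Clec4e (181 ± 42.4) and Clec5a (120 ± 13.3; CPM per kb, SD, n = 2). Clec4a2 (38.5 ± 1.26) and Clec12a (37.0 ± 2.71) came next and overlapped, above Clec4a3 (18.1 ± 0.546), Clec4a1 (11.6 ± 0.58) and Clec4b1 (0.488 ± 0.474; CPM per kb, SD, n = 2). In WT libraries Clec4n led with 916 ± 10.3 CPM per kb, followed by Clec7a (481 ± 15.6), Clec4d (297 ± 17.0), Clec4e (89.2 ± 26.5) and Clec5a (81.5 ± 0.943; CPM per kb, SD, n = 2), with Clec4e and Clec5a overlapping. Below them the WT order was Clec4a3 (57.2 ± 2.64), Clec4a1 (33.8 ± 0.296), Clec4a2 (29.8 ± 0.343), Clec12a (22.4 ± 0.194) and Clec4b1 (0.417 ± 0.195; CPM per kb, SD, n = 2). By group means the 5 most abundant genes thus kept their order, although in WT 1 Clec5a (80.8 CPM per kb) stood above Clec4e (70.5 CPM per kb). The ITIM-bearing genes stood above Clec4a3 and Clec4a1 in the mutant but below them in WT. With the longest transcript as length, Clec12a passed Clec4a2 in both genotypes, and both passed Clec4a1 in WT, at 38.3 and 35.1 against 33.8 CPM per kb.

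**Figure D3:**
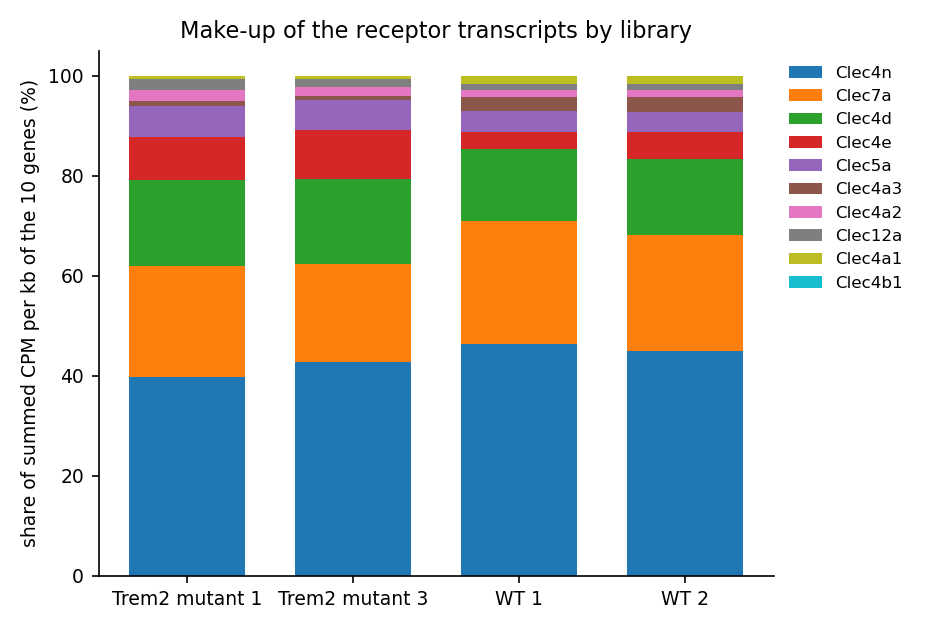
Share (%) of each receptor gene in the summed CPM per kb of the 10 genes, per library, with Trem2 mutant libraries left of WT. Clec4e takes 8.56% and 9.85% in the mutant libraries against 3.53% and 5.34% in WT, and Clec4a3 takes 1.0% and 0.86% against 2.78% and 2.92%.

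Summed by role, the activating genes had 1662 and 2043 CPM per kb in Trem2 mutant 1 and Trem2 mutant 3, against 1852 and 1878 CPM per kb in WT 1 and WT 2. The groups overlapped in that sum. The ITIM-bearing genes summed to 76.6 and 74.5 CPM per kb in the mutant libraries, against 52.1 and 52.3 CPM per kb in WT. Clec4a1 and Clec4a3 together had 29.7 and 29.6 CPM per kb in the mutant libraries, against 89.3 and 92.6 CPM per kb in WT. The activating sum was therefore 21.7 and 27.4 times the ITIM-bearing sum in the mutant libraries, against 35.6 and 35.9 times in WT, a ratio of mutant over WT of 0.687. When Clec4a1 and Clec4a3 were counted with the ITIM-bearing genes, that ratio was 1.35, so its direction rests on where the DCIR relatives without an ITIM are placed.

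The genes most like a receptor gene across the 4 libraries were found by the distance between mean-centred log2 CPM, among 10191 genes with a mean of at least 5 CPM. For Clec4e, with the highest fold change, they were Acod1 (distance 0.083), Gm15518 (0.0928) and Pomk (0.121). Acod1 encodes the enzyme that makes itaconate. It had 636 and 873 CPM in Trem2 mutant 1 and Trem2 mutant 3, against 278 and 461 CPM in WT 1 and WT 2. For Clec4a3, with the lowest fold change, they were Gm16096 (0.101), Igf2bp2 (0.209) and Stra6l (0.288). Igf2bp2 encodes an RNA-binding protein. It had 22.6 and 22.7 CPM in the mutant libraries, against 76.4 and 66.7 CPM in WT. With 4 libraries many genes come close to any pattern.

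The chains and enzymes through which the receptors signal were read beside all genes tested, of which 9.55% were called higher and 3.6% lower. The 3 coupling adaptors Fcer1g (FcRγ), Tyrobp (DAP12) and Hcst (DAP10) had log2 fold changes of 0.20, 0.22 and 0.21, and 0 of 3 passed with edgeR, DESeq2 or limma-voom, with 2 at an unadjusted p under 0.05 by edgeR. Tyrobp had 816 and 787 CPM in Trem2 mutant 1 and Trem2 mutant 3, against 702 and 671 CPM in WT 1 and WT 2. Of 13 proximal kinases and effectors 2 rose and 0 fell. Lcp2, the adaptor SLP-76, had 307 ± 0.31 CPM in the mutant and 239 ± 13.5 CPM in WT (SD, n = 2 each; log2 fold change 0.36, edgeR adjusted p = 0.0296). Btk, a kinase of the same step, had a log2 fold change of 0.28 (adjusted p = 0.063), and Syk had 1012 and 971 CPM in the mutant libraries, against 784 and 888 CPM in WT. With edgeR 0 genes of this list passed without WT 1 or without WT 2, and the list had 3 rises when Trem2 mutant 1 was left out and 4 for Trem2 mutant 3.

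Of 14 genes of the CARD9 complex and transcription factors 2 rose and 0 fell. Cebpb, whose product induces Clec4e, had 447 ± 33.3 CPM in the mutant and 335 ± 12.6 CPM in WT (SD, n = 2 each; log2 fold change 0.42, edgeR adjusted p = 0.0246). Bcl10, the scaffold between CARD9 and MALT1, had a log2 fold change of 0.31 (edgeR adjusted p = 0.0382), and Nfatc2 had 0.47 (adjusted p = 0.0508). Of 8 inhibitory phosphatases and ligases 0 passed with edgeR, DESeq2 or limma-voom, with 2 at an unadjusted p under 0.05 by edgeR. Ptpn6, Cbl and Inpp5d had log2 fold changes of 0.22, 0.21 and 0.14. Without WT 1 or WT 2, 0 genes of the CARD9 list passed, and without Trem2 mutant 3, 4 did.

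Of 10 ligands and partner receptors 6 rose and 1 fell. Anxa1, annexin A1 of apoptotic cells, had 679 ± 31.3 CPM in the mutant and 340 ± 7.68 CPM in WT (SD, n = 2 each; log2 fold change 0.997, edgeR adjusted p = 6.47e-04), and it passed without each library in turn. Itgam (CD11B, log2 fold change 0.61, edgeR adjusted p = 0.00429) and Tlr4 (0.41, adjusted p = 0.0179) also rose, and Anxa5, the fall, was named after its value was seen (−0.32, adjusted p = 0.0434). Without WT 1, 1 gene of this list rose and 0 fell, and without WT 2, 2 rose and 0 fell. Of 17 outputs tested, the cytokine, chemokine and enzyme genes that such receptors induce, 8 rose and 0 fell. Il1rn, the IL-1 receptor antagonist, had 1685 ± 286 CPM in the mutant and 861 ± 111 CPM in WT (SD, n = 2 each; log2 fold change 0.97, edgeR adjusted p = 0.00591). Ccl3 (log2 fold change 0.86, edgeR adjusted p = 0.0209) and Nos2 (1.35, adjusted p = 0.0244) also rose. Without WT 1, 0 outputs passed with edgeR, and DESeq2 called 4 with all libraries.

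**Figure D4:**
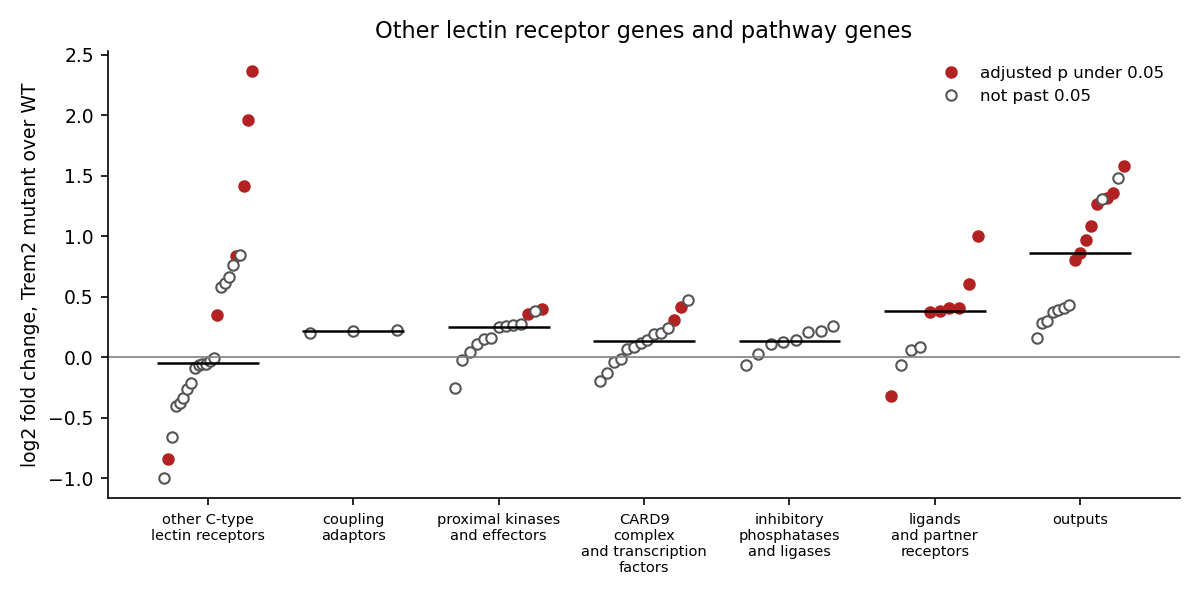
Log2 fold change of Trem2 mutant over WT for each tested gene of 7 lists, filled where the edgeR adjusted p was under 0.05 and open where it was not, with list medians as bars. The outputs have the highest median, 0.86, while the adaptors and the inhibitory phosphatases and ligases have medians of 0.21 and 0.13 and no filled point.

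Over the 6 lists, 18 of 65 tested signalling and output genes rose and 1 fell, with a median log2 fold change of 0.25. Scaled by library totals, 10 of them rose and 7 fell, beside 650 higher and 4365 lower among all 14239 genes tested. The medians of the adaptors, kinases, CARD9 list and phosphatases were then negative, at −0.16, −0.13, −0.24 and −0.24. The median of all genes in that setting was lower still, at −0.40. Among C-type lectin receptor genes outside the 10, 27 of 40 listed were in the table and 24 were tested, of which 5 rose and 1 fell, with a median log2 fold change of −0.05. Clec4b2, Mrc2 (endocytic collagen receptor, log2 fold change 2.36, edgeR adjusted p = 0.0147) and Cd302 (−0.84, adjusted p = 0.00286) had the lowest p. All 3 passed without each library in turn. Cd69 (0.83, adjusted p = 0.0373) and Colec12 (1.42, adjusted p = 0.0265), named after their values were seen, also rose. Cd69 lost its call without WT 1, and Colec12 passed only when Trem2 mutant 3 was the library left out. Mrc2 rested on few reads, 66 and 84 in Trem2 mutant 1 and Trem2 mutant 3, against 24 and 6 in WT 1 and WT 2. The log2 fold change of Mrc2 was 3.66 without WT 1 and 1.69 without WT 2. Mrc2 and Colec12 are also made by fibroblasts. Of 4 tested fibroblast markers 3 rose, with summed levels of 398 to 441 CPM in the mutant against 107 to 156 CPM in WT. Their part in these values was not tested.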

How the data were processed

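RNA was measured in sorted tumour MDSCs, 2 libraries per genotype. Total RNA was depleted of ribosomal RNA and sequenced on a NextSeq, per the labels' protocols. The authors deposited unnormalized counts, one whole number per Ensembl gene and library. The submitters' processing notes name FastQC, STAR 2.5.2a, DESeq2 and the build GRCm38 (mm10); for the read counter, strand setting and annotation no source used here gives a name. Every gene listed had at least 11 reads in all. Of its IDs, 17422 matched GENCODE M21 and 54 did not. The mutant column numbered 3 matches no labelled replicate and was used as a mutant library without a number of its own. The squared difference between libraries of a genotype was, at the median gene, 6.22 times counting noise in the mutant and 2.01 times in WT. It was taken on reads over library totals, without TMM factors, so a difference in scaling between libraries counts in it. Values this far apart are not 1 library deposited again, but may still be technical repeats.

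The counts went through edgeR 4.0.16 (R 4.3.3): filterByExpr (14239 genes left), TMM scaling and the two-sided quasi-likelihood test in its default form, with Benjamini-Hochberg adjustment at 0.05. Each standard error was taken from the log2 fold change and the F statistic (their ratio, with F square-rooted). CPM are TMM-scaled; CPM per kb uses the union of annotated exons. The floor of 3 counts corresponded to 0.322 to 0.359 CPM and covers counting error only. The receptor genes and all lists were chosen with earlier results of these data known. Named were all 10 receptor genes, Trem2, the 3 genes per list with the lowest p, the 3 nearest patterns to the highest and lowest fold change, and neighbours in the cluster. A few genes that are counted in the lists are not reported here by name. Coding sequences were searched and aligned with Biopython 1.88 in Python 3.11.15, with the hydrophobic segment taken as the 19-residue window of highest hydropathy starting within the first 90 residues. Promoters come from RefSeq and matched 9 of the 10 genes. Alternatives were other scalings and filters, DESeq2 1.42.0, limma-voom (limma 3.58.1), leaving out noncoding and mitochondrial classes, the bias-adjusted test form (added after the data were seen) and leaving out each library.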

Additional observations from a re-analysis of the deposited data

How the results depend on the processing

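The log2 fold changes of the 9 receptor genes were recomputed 117 times under 13 alternatives; 8 of these moved by more than the spread between libraries, all with library totals as the only scaling, and no called value changed sign. With library totals, 650 of all genes were called higher and 4365 lower, 1 and 4 receptor genes, 10 and 7 signalling and output genes, and 3 and 5 other lectin receptor genes. With DESeq2, 198 of all genes were lower, 2 receptor genes were higher (Clec12a and Clec5a) and 0 signalling genes were lower; with RLE scaling 0 signalling genes were lower. DESeq2 called 4 outputs and 1 gene of the CARD9 list. With 1 library left out, where the lone library is taken to be as variable as the pair it was set against, 489 to 2090 genes were higher and 92 to 912 lower. Receptor genes called ranged from 1 to 4 higher and 2 to 3 lower, signalling and output genes from 1 to 26 higher and 0 to 1 lower, and other lectin receptor genes from 2 to 7 higher with 1 lower. The causes were not tested. The ratio of activating to ITIM-bearing level, 0.687 as mutant over WT, was 0.607 to 0.766 with 1 library left out and 1.35 with Clec4a1 and Clec4a3 added to the ITIM-bearing sum. No paired analysis was possible because the columns of the 2 genotypes share only the number 1. Depth limits Clec4b1 and Clec4a4, with at most 14 reads in a library.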
